A study of Mus musculus with 12 samples.

Results

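The PPAR target genes described here are Angptl4, Pdk4, Plin2, Klf10, Cat and Tsc22d1, 6 genes whose products act outside fatty acid oxidation, and every peak that the files assign to one of them was followed. They are 6 of the 14490 genes named as the nearest gene of any peak in the 12 peak lists of the series. Between them they held 18 of the 10124 RXR peaks in 8 lists, which merged to 8 of 5014 regions, and 42 of the 66607 peaks of acetylated histone H3 lysine 27 (H3K27ac) in 4 lists. Each list comes from chromatin immunoprecipitation and sequencing of wild type E14 mouse embryonic stem (ES) cells, a feeder-free line grown with leukemia inhibitory factor, or of cells differentiated from them. RXR and H3K27ac were each mapped in 4 ES cell conditions with 1 library each. These are a control (dimethylsulfoxide is the vehicle in the protocol) and 24 h with 1 µM of GW3965, an agonist of the liver X receptor (LXR), of LG268, an agonist of RXR itself, or of RA, all-trans retinoic acid. RXR was also mapped in cells turned toward a neural fate, as embryoid bodies given RA at 5 µM, at day 8 and at day 16 with 2 libraries each, and H3K27ac lists of those days were not analysed here. No PPAR agonist is named among these treatments.

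PPARs are nuclear receptors for fatty acids and their derivatives. They bind DNA as a heterodimer with RXR at a direct repeat of the hexamer AGGTCA with 1 base between the copies, called DR1, and this dimer can be activated through either partner. RXR also pairs with LXR and with the retinoic acid receptor, so an RXR peak does not name the partner that bound there. The PPAR program is best known for fatty acid oxidation, but it also holds genes that handle lipid outside that pathway and genes that regulate transcription.

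A peak here carries a score given by the authors, a position in mm10 and the distance to the nearest transcription start site (TSS), negative upstream. The scale of the score between libraries is not stated, so each score is read by its rank in its own list, and the rank percentile is 100 for the highest peak. A site is a stretch of merged peaks that overlap by at least 1 bp. The RXR lists held 940 to 2089 peaks in ES cells, 1154 and 2044 on day 8, and 429 and 409 on day 16. Read totals are not in the lists, so depth is unknown, and with 1 library per ES condition no test between conditions was possible. Nothing in the labels says that the day replicates came from separate cultures. The GW3965 list stands apart from the other ES lists, with 16.4% of its peaks in LTR retrotransposons against 2.48% to 2.74%. It also had RXR peaks assigned to 4 of 6 pluripotency markers, against 0 in the control, 1 with LG268 and 0 with RA. Of all 14490 genes, 5.99% had an RXR peak with GW3965. As a check of the labels, H3K27ac peaks were assigned to 5 of 6 pluripotency markers in the control, 6 with GW3965, 3 with LG268 and 3 with RA. Neural markers had such peaks too, at 5, 4, 3 and 4 of 6 genes, and endoderm markers at 2, 3, 1 and 2 of 4. Of all 14490 genes 88.4%, 80.7%, 65.3% and 72.8% had one. All 4 lists come from ES cells, so these counts could not tell cell types apart.

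All 6 genes had an RXR peak in at least 1 of the 8 lists, where 25.1% of the 14490 genes did. Without the GW3965 list 4 of the 6 had one, against 22.5% of all genes, because Plin2 and Tsc22d1 had a peak with GW3965 and in no other list. Control cells had a peak at Angptl4 and Pdk4, where 6.89% of all genes had one. LG268 cells had peaks at Angptl4, Pdk4 and Klf10 (12.4% of all genes), and RA cells at these 3 genes and at Cat (11.9%). GW3965 cells had peaks at Angptl4, Plin2, Klf10 and Tsc22d1 (5.99%). Klf10 was the member found on day 8, in both replicates, where 6.31% and 10.8% of all genes had a peak and 5.63% had one in both. On day 16 Angptl4 was found in both replicates, where the shares were 2.33%, 2.19% and 1.78%. Angptl4 was the member with a peak in all 4 ES lists, which 1.76% of all genes had. These 6 genes were chosen with results of these lists known, so their counts describe them and are no test.

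**Figure D1:**
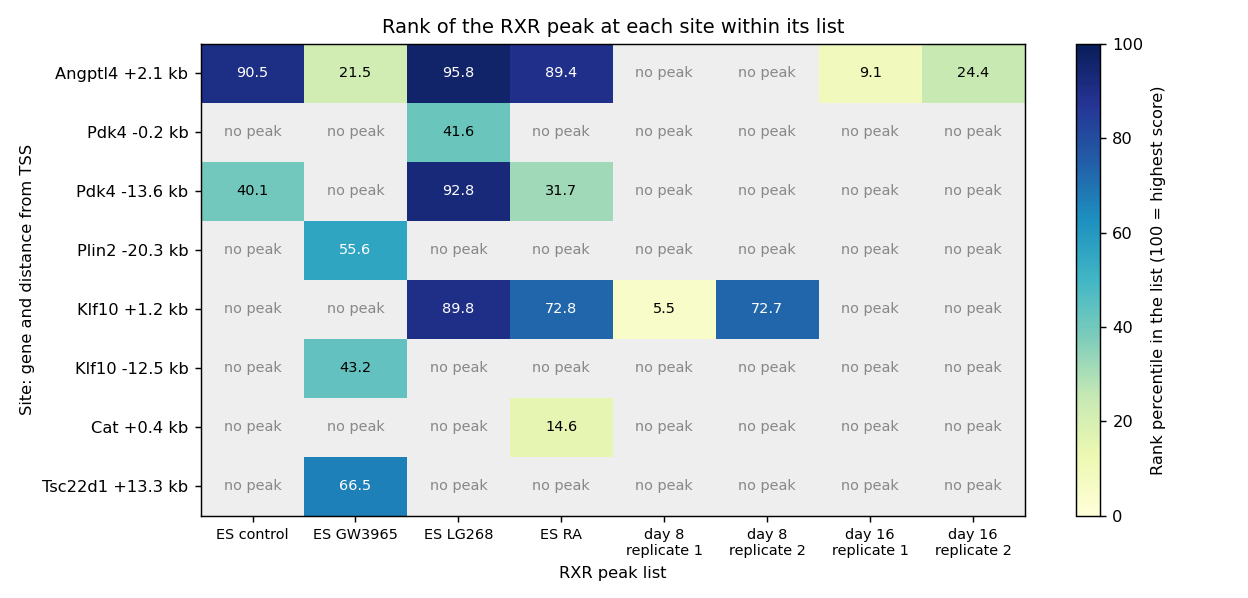
Rank percentile of the RXR peak at each of the 8 sites (rows, named by gene and distance from the TSS in kb) in each of the 8 RXR lists (columns); 100 is the highest score of a list and grey marks no peak. The Angptl4 site is at 89.4 or above in the control, LG268 and RA lists, and 5 of the 8 sites appear in 1 list each.

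Angptl4 encodes angiopoietin-like 4, a secreted inhibitor of lipoprotein lipase that limits the uptake of fatty acids from circulating triglyceride. Its RXR site lies inside the gene, in intron 3 of 6, at chr17:33779153-33779757. In the control the peak had a score of 22.9 and rank 104 of 1089. With LG268 the score was 33.5 (rank 88 of 2089), with RA 20.3 (rank 210 of 1970) and with GW3965 4.54 (rank 739 of 940). The rank percentile was therefore 90.5 in the control, 95.8 with LG268, 89.4 with RA and 21.5 with GW3965, and the GW3965 peak alone of the 4 lay low in its list. The peak was 588 bp wide in the control, 554 bp with LG268, 389 bp with RA and 197 bp with GW3965, so the lowest-ranked peak was also the narrowest.

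On day 8 neither replicate had an Angptl4 peak. On day 16 both did, with a score of 4.47 (rank 391 of 429) in replicate 1 and 6.33 (rank 310 of 409) in replicate 2. These peaks were 79 and 230 bp wide and lay in the lower part of their lists, at percentiles 9.09 and 24.4. The centres of the 6 Angptl4 peaks lay within 175.5 bp of each other. With a 50% reciprocal overlap in place of 1 bp, the day 16 peaks and the control's match with GW3965 were no longer counted.

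A rank percentile shifts with list length, so the Angptl4 change was set beside all RXR peaks that the control shares with each ligand list. The median change of the 246 peaks shared with GW3965 was -8.64 percentile points (ligand minus control), and that of the 784 shared with RA was 6.33. For the 789 shared with LG268 it was 8.86. Angptl4 changed by -69.05 points with GW3965, below the 5th percentile of the shared peaks (-65.5), and 238 of the 246 had a change at or above it. The shared peaks were not matched on starting rank. Angptl4 started high, at percentile 90.5, and peaks that started low in the control could not fall as far. With LG268 the change was 5.29 points and with RA -1.15, both inside the range of the middle 90% of shared peaks (-26.9 to 60.1 and -34.1 to 59.5). The lists shared unequal parts of the 1089 control peaks, 22.6% for GW3965, 72.5% for LG268 and 72.0% for RA. Both control sites of the 6 genes, at Angptl4 and upstream of Pdk4, recurred under LG268 and RA, and Angptl4 under GW3965.

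H3K27ac was called at the Angptl4 site in the control and with RA. The control peak had a score of 8.43 (rank 10488 of 21418), near the middle of its list, and shared 42 bp with the control RXR peak. With RA a peak of score 2.83, near the bottom of its list at rank 14655 of 14958, lay wholly within the RA RXR peak (285 bp). No H3K27ac peak touched the site with GW3965, where the nearest was 18734 bp away, or with LG268. In the LG268 list the H3K27ac peak of the gene was instead in exon 1, 292 bp downstream of the TSS, with a score of 3.43. The LG268 RXR peak, the highest-ranked of the 4, was thus one without a called H3K27ac peak over it. The LG268 H3K27ac list is also the shortest of the 4, with 12472 peaks. With every H3K27ac list limited to that length, the control peak at the site (rank 10488) was kept. The RA peak (rank 14655) was not. Why the LG268 list had no peak there was not tested.

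**Figure D2:**
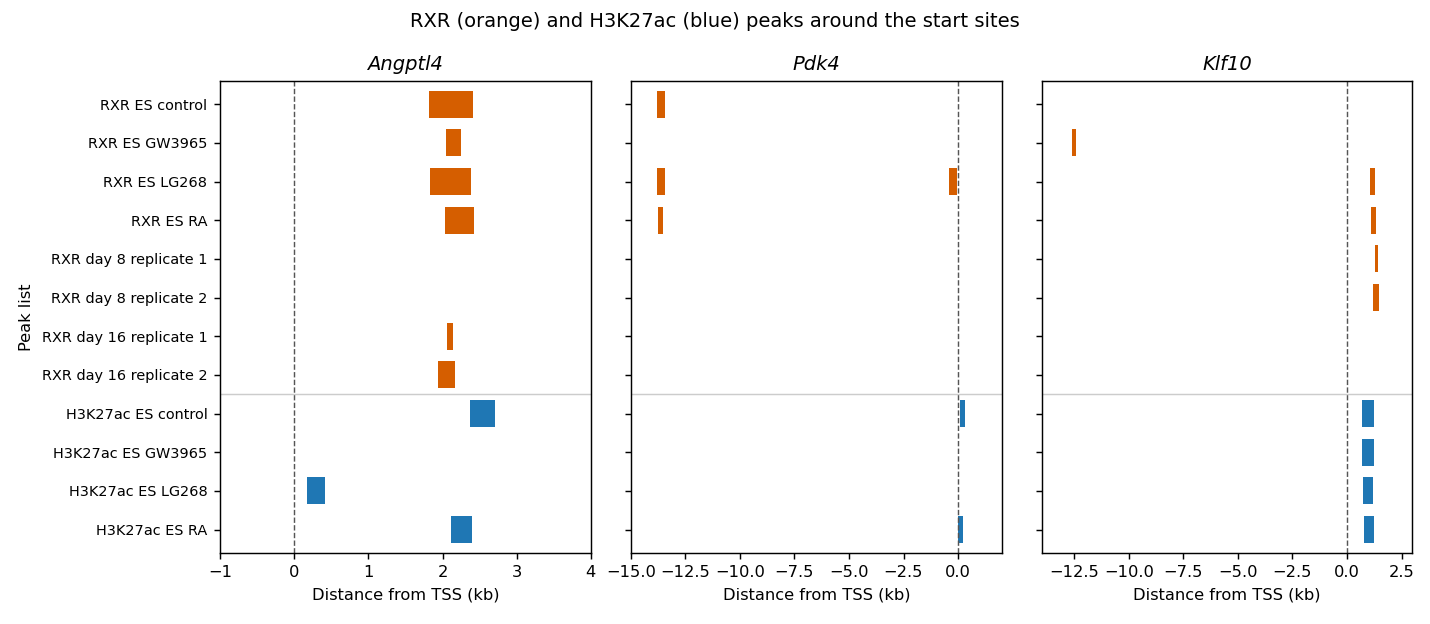
Peaks of Angptl4, Pdk4 and Klf10 in the 8 RXR lists (orange) and 4 H3K27ac lists (blue), by distance from the TSS in kb (x axis, downstream positive; dashed line at the TSS). Bars span the peak, with the narrowest drawn slightly wider to be seen, and H3K27ac peaks farther than the axis, such as those 14211 and 52770 bp downstream of the Pdk4 TSS, are not drawn. Centres of the Angptl4 RXR peaks lie within 175.5 bp and those of the Klf10 intron 1 peaks within 205.5 bp. At Klf10 the day 8 peaks lie farther into the gene than those with LG268 and RA.

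Pdk4 encodes pyruvate dehydrogenase kinase 4, which phosphorylates and inhibits the pyruvate dehydrogenase complex and so spares glucose when fatty acids are burned. It had 2 RXR sites, 1 in the intergenic sequence 13.6 kb upstream of the TSS and 1 at its promoter, with 13022 bp between them. No other protein-coding gene of RefSeq lay nearer to the upstream site, the next being Asb4 at 76698 bp. The upstream site (chr6:5509721-5510081) had a control score of 6.67 (rank 653 of 1089) and an RA score of 5.63 (rank 1347 of 1970). With LG268 its score was 23.4, rank 151 of 2089. It was therefore in the lower part of the control and RA lists, at percentiles 40.1 and 31.7, and at 92.8 with LG268. GW3965 cells and the 4 day libraries had no peak there.

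The rise of the upstream Pdk4 site with LG268 was 52.7 percentile points, and 65 of the 789 peaks shared by the control and LG268 rose by as much or more. Peaks that started high in the control could not rise as far, and starting ranks were not matched. With RA the same site changed by -8.45 points. The 3 peaks at this site had centres within 12 bp. It lay outside H3K27ac in all 4 lists, with the nearest peak 13432 bp away with RA, 13523 bp in the control, 27518 bp with GW3965 and 585526 bp with LG268. Of all RXR peaks of the control and LG268 lists, 32.0% and 24.5% lay in an H3K27ac peak of the same condition.

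The promoter site of Pdk4 (chr6:5496312-5496698, at -227 bp from the TSS) was called with LG268 only, with a score of 5.90 and rank 1220 of 2089. H3K27ac was called just downstream of the Pdk4 TSS in the control (score 3.29, rank 20306 of 21418) and with RA (4.62, rank 12037 of 14958), ending 114 and 23 bp short of the promoter site. No H3K27ac peak was assigned to Pdk4 with LG268, where the nearest lay 572117 bp from the promoter site. GW3965 cells had H3K27ac peaks 14211 and 52770 bp downstream of the TSS and none at it.

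The part of this LG268 peak that falls in the RefSeq promoter window of Pdk4 is shown because it is the only RXR site of the 6 genes whose bases could be read. It covers chr6:5496312-5496528 of GRCm38.p6 on the minus strand, 217 of the 387 bp of the peak, and ends short of the TSS. All letters are in lower case because none of the searched motifs was found.
Pdk4: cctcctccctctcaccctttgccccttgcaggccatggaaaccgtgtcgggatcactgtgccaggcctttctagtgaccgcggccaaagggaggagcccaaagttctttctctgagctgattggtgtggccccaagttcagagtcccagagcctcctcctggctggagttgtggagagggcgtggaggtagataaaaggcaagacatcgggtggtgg

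Both strands of the promoter windows, 250 bases before to 50 after a start site, were searched for AGGTCA and for its direct repeats with 1, 4 or 5 bases between the copies. These are AGGTCANAGGTCA (DR1), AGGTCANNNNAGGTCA (DR4, known for LXR) and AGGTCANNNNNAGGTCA (DR5, known for the retinoic acid receptor), with up to 2 mismatches over both hexamers. Of all 32851 windows 16.3% held the hexamer, 3.86% a DR1, 3.02% a DR4 and 2.79% a DR5. Of the 734 windows touched by an RXR peak of any list, 22.5%, 7.08%, 4.90% and 6.95% did. RefSeq windows matched 4 of the 6 genes, Pdk4, Cat, Plin2 and Tsc22d1, with 8 windows in all. None of the motifs was found in the Pdk4 window, which says only that these letters are not there. No window was matched for Angptl4 and Klf10.

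Klf10 encodes a zinc finger transcription factor of the Krüppel-like family that is induced by transforming growth factor beta. It had an RXR site in intron 1 of 3 (chr15:38299226-38299656), in a stretch that the files annotate as a CpG island. The site had no peak in the control and none with GW3965. With LG268 the score was 18.4 (rank 215 of 2089) and with RA 10.8 (rank 537 of 1970), or percentiles 89.8 and 72.8. On day 8 the replicates differed, with a score of 3.41 (rank 1092 of 1154) in replicate 1 and 18.0 (rank 558 of 2044) in replicate 2. Replicate 1 therefore had the peak near the bottom of its list, at percentile 5.46, and replicate 2 at 72.7. Neither day 16 replicate had a peak there.

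The day 8 peaks of Klf10 lay farther into the gene than those of ES cells. Peak centres were 1162 bp from the TSS with LG268 and 1194 bp with RA, against 1367 and 1334 bp on day 8. The LG268 peak and that of day 8 replicate 1 did not touch, with 18 bp between them and centres 205.5 bp apart. They are 1 site because the RA peak and that of day 8 replicate 2 overlap both. Within a stage the centres differed by 32.5 bp between LG268 and RA and by 33 bp between the day 8 replicates.

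An H3K27ac peak covered part of the intron 1 site of Klf10 in all 4 ES conditions, with or without RXR. It spanned 158 to 200 of the 431 bp of the site. The H3K27ac peak over it had a score of 24.0 (rank 2520 of 21418) in the control, 16.3 (3791 of 17759) with GW3965, 8.97 (4775 of 12472) with LG268 and 19.2 (1558 of 14958) with RA. Its percentile was highest with RA (89.6) and in the control (88.2), and lowest with LG268 (61.7). This H3K27ac peak shared 158 bp with the LG268 RXR peak and 153 bp with the RA RXR peak. A lower-ranked H3K27ac region at -83917 to -83759 bp from the TSS was called in the control, with LG268 and with RA, at percentiles 22.6, 23.6 and 32.0.

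GW3965 cells had a different Klf10 peak, at -12528 bp from the TSS in an ORR1A2 element, an LTR retrotransposon (chr15:38313137-38313333). Its score was 6.03 (rank 535 of 940), and no other RXR list had a peak there. The nearest H3K27ac peak was 13100 bp away with GW3965. A gene count that joins both sites would list Klf10 under GW3965, LG268 and RA alike, but no base was shared between the GW3965 peak and the others. The part that the excess of LTR elements in the GW3965 list has in this peak was not tested.

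**Figure D3:**
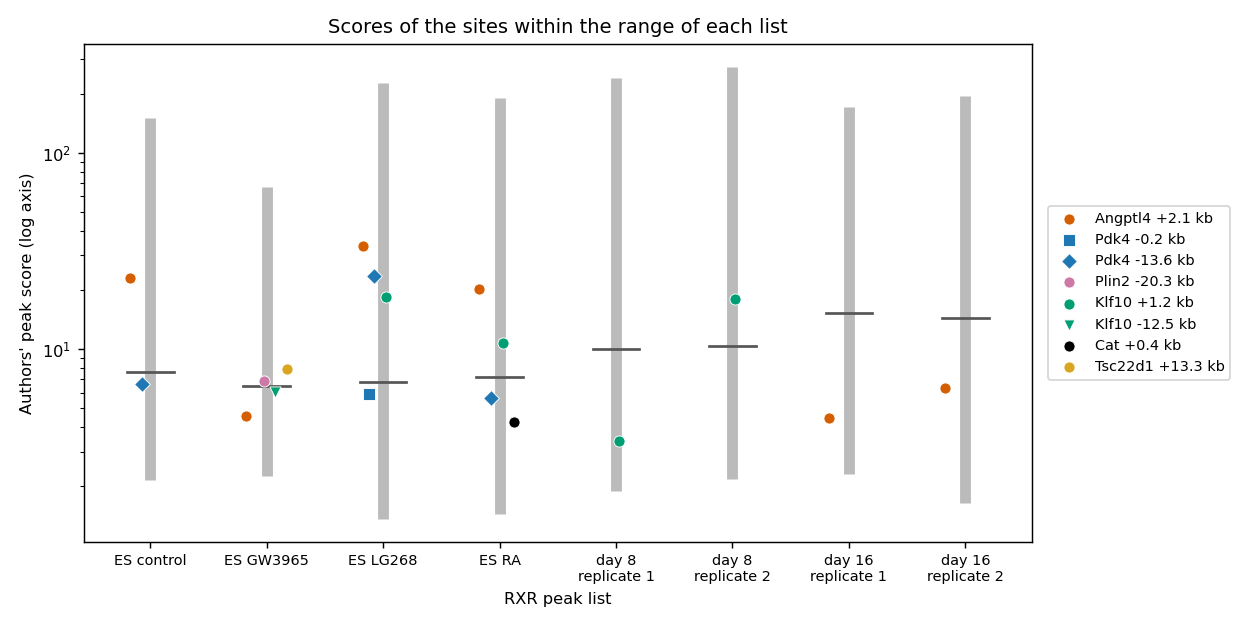
Authors' score (log axis) of each member peak in its RXR list; grey bars run from the lowest to the highest score of the list and the short lines mark its median. Of the 18 peaks 9 lie above the median, with Angptl4, the upstream Pdk4 site and Klf10 highest in the LG268 list and all 4 GW3965 peaks at 7.95 or below. The scale between lists is not stated, so heights are to be read within a list. By rank the GW3965 peaks were at percentiles 21.5 to 66.5.

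Cat encodes catalase, the peroxisomal enzyme that breaks down hydrogen peroxide, a by-product of peroxisomal oxidases. Its RXR site was called with RA only, in intron 1 of 12, 374 bp downstream of the TSS and in an annotated CpG island (chr2:103484693-103484865). The score was 4.23 (rank 1683 of 1970), so the peak is among the lower ones of its list, at percentile 14.6. The H3K27ac peak over it was present in all 4 conditions, with scores of 28.2 in the control, 16.1 with GW3965, 10.3 with LG268 and 15.4 with RA. These are percentiles 92.0, 78.2, 69.0 and 82.7. Cat thus had acetylated chromatin at this place in the 3 conditions without an RXR peak as well as in RA.

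A smaller H3K27ac peak upstream of the Cat TSS was called in the control (score 3.64) and with LG268 (5.91), with 297 and 237 bp between the upstream and downstream peaks. Most of the 250 bases before the Cat TSS lie in that gap, and they are shown because they hold a DR1 match with 2 mismatches, given in capitals. They are chr2:103485154-103485403 of GRCm38.p6, minus strand, and no RXR peak of any list touched them.
Cat: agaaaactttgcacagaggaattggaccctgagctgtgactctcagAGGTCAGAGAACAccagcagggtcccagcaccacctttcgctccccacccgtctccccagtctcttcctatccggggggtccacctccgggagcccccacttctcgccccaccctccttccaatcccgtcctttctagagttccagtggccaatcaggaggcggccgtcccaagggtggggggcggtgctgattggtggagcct

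Plin2 encodes perilipin 2, a protein that coats lipid droplets in most cell types. Its RXR peak was intergenic, at -20280 bp from the TSS (chr4:86690230-86690449), and was called with GW3965 only, with a score of 6.88 and rank 418 of 940. No H3K27ac peak lay within 19881 bp of it in any of the 4 lists. At the promoter, Plin2 had H3K27ac peaks in the control (score 6.96, percentile 42.3), with GW3965 (7.95, 48.8) and with LG268 (5.06, 26.3). With RA the promoter peak was not called and a peak of score 2.66, rank 14728 of 14958, lay in intron 1, at 775 bp. The H3K27ac peaks of Plin2 were thus below the middle of every list, though near it with GW3965 (48.8). No RXR peak was called at the Plin2 promoter.

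The promoter window of Plin2 also held a DR1 match with 2 mismatches, on the strand opposite to the gene. The 92 bases that lie upstream of the RefSeq gene are shown for that match, which is in capitals and reads as its reverse complement (chr4:86670218-86670309 of GRCm38.p6, minus strand). The GW3965 H3K27ac peak covered the whole window.
Plin2: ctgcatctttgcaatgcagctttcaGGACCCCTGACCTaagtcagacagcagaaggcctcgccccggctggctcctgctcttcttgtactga

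The Cat and Plin2 windows were the 2 of the 8 with a match to a direct repeat, and in both the single exact AGGTCA is part of the DR1. A match is a description of letters and not of binding.

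Tsc22d1 encodes a leucine zipper protein, also known as a target of transforming growth factor beta, that is made in long and short forms from separate promoters. Its RXR peak (chr14:76428970-76429201) lay in intron 1 of 2 of the long transcript, 13264 bp downstream of the TSS, and was called with GW3965 only. The score was 7.95 and the rank 316 of 940, the highest percentile (66.5) of the 4 GW3965 peaks. The nearest H3K27ac peak was 12744 to 13666 bp away in the 4 lists.

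H3K27ac at Tsc22d1 was called near the TSS of both transcripts, with ranks that differed between regions. Just downstream of the short transcript's TSS the highest peak had a score of 33.5 in the control (rank 1060 of 21418), 27.02 with GW3965 (1340 of 17759), 25.4 with LG268 (401 of 12472) and 35.9 with RA (178 of 14958). This region ranked between the percentiles 92.5 and 98.8, highest with RA. It was called as 1 peak of 1289 bp with GW3965 and 1199 bp with RA, and as 2 peaks with LG268 and in the control, where 230 bp separated them. A peak at -313 bp from the short transcript's TSS was called in the control only, with rank 18278 of 21418 and percentile 14.7. Near the long transcript's TSS a region about 1.7 kb upstream was called in all 4 lists, with scores of 11.6, 16.8, 9.27 and 17.9 in the control, GW3965, LG268 and RA. These are percentiles 64.6, 79.8, 63.4 and 87.7. A second peak closer to that TSS had scores of 22.4, 11.3 and 9.33 in the control, GW3965 and LG268, at percentiles 86.3, 64.9 and 63.9. It was not called with RA, where a peak of score 6.13 (percentile 35.8) lay 274 bp downstream instead.

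**Figure D4:**
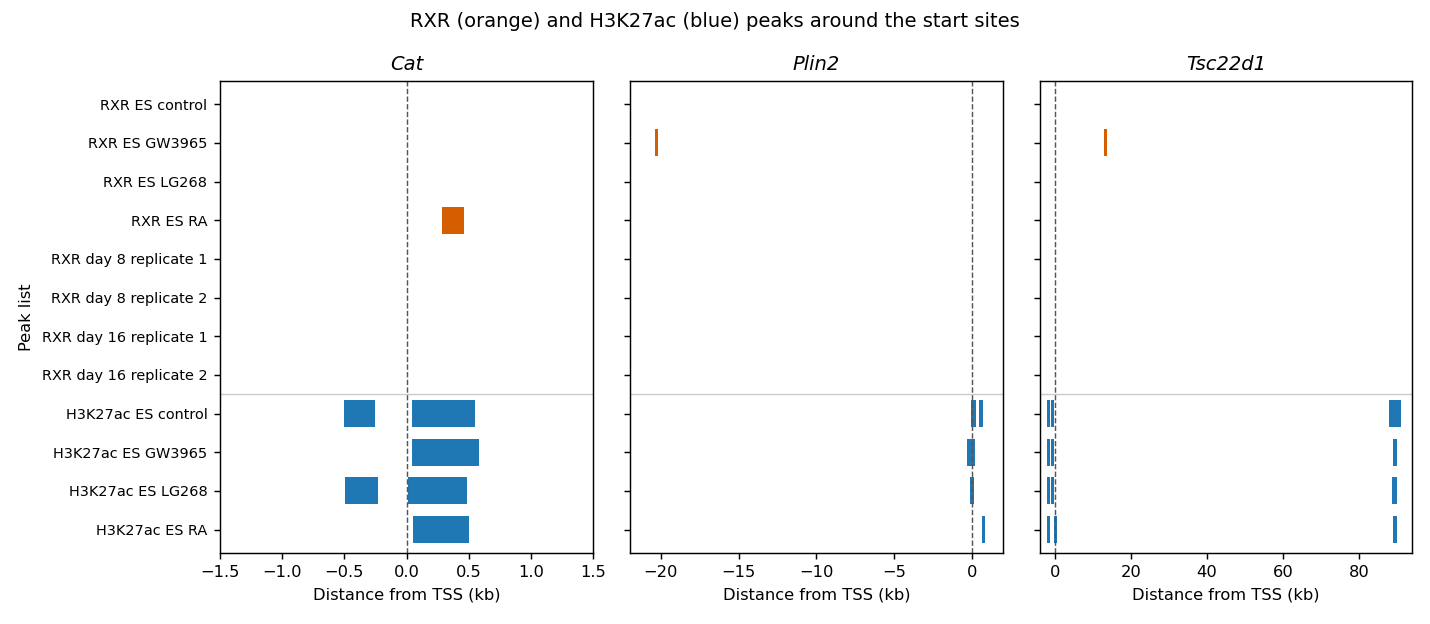
Peaks of Cat, Plin2 and Tsc22d1 in the 8 RXR lists (orange) and 4 H3K27ac lists (blue) by distance from the TSS in kb, for Tsc22d1 from the TSS of the long transcript. Narrow peaks are drawn slightly wider to be seen. Each gene has RXR in 1 list, over an H3K27ac peak at Cat and more than 12 kb from one at Plin2 and Tsc22d1.

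Over the 6 genes, H3K27ac peaks were assigned to all 6 in the control and with RA, and to 5 with GW3965 and with LG268. The background is high, since 88.4% of the 14490 genes had an H3K27ac peak in the control, 80.7% with GW3965, 65.3% with LG268 and 72.8% with RA. The number of peaks at the 6 genes was 15 in the control, 8 with GW3965, 10 with LG268 and 9 with RA, from lists of 21418, 17759, 12472 and 14958. The 42 peaks merged to 18 regions, of which 4 were called in all 4 lists and 7 in a single list. The 4 constant regions were those of Klf10 intron 1, Cat intron 1 and the 2 Tsc22d1 regions described above, and Angptl4, Pdk4 and Plin2 had none. Of the members' RXR peaks, 1 of 2 in the control lay in H3K27ac of the same condition, 0 of 4 with GW3965, 1 of 4 with LG268 and 3 of 4 with RA. Over all RXR peaks these shares were 32.0%, 18.2%, 24.5% and 27.8%. The single LG268 case was Klf10, and the RA cases were Angptl4, Klf10 and Cat. With every H3K27ac list limited to 12472 peaks, 2 of the RA cases were left, Klf10 and Cat.

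**Figure D5:**
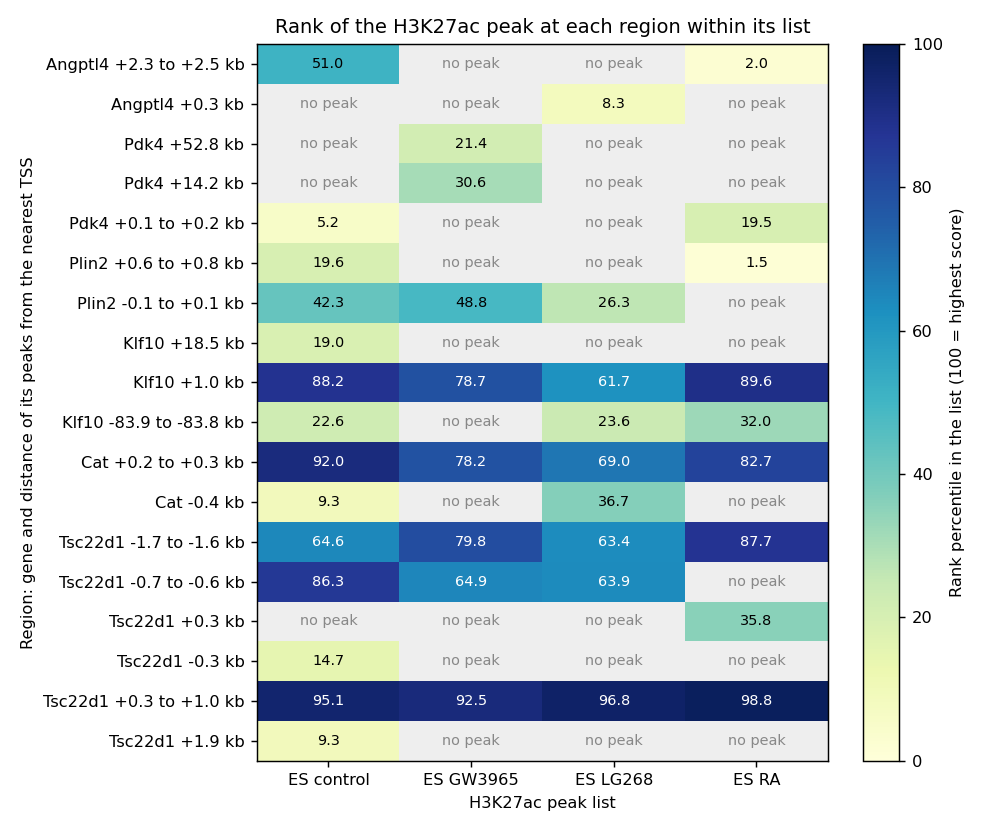
Rank percentile of the highest H3K27ac peak in each of the 18 regions of the 6 genes (rows, with the distance of its peaks from the nearest TSS in kb) in the 4 ES cell lists (columns); grey marks no peak. Klf10, Cat and Tsc22d1 have regions at 61.7 or above in every list, while no Angptl4, Pdk4 or Plin2 region is above 51.0.

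Sites found in 1 list were common in the series as a whole, with 56.7% of the 5014 regions, and made up 5 of the 8 sites here. Of these 5, 3 were found with GW3965 (Plin2, Tsc22d1 and the LTR site of Klf10), 1 with LG268 (the Pdk4 promoter) and 1 with RA (Cat). The 3 sites seen in several lists, at Angptl4, upstream of Pdk4 and in Klf10 intron 1, were in 6, 3 and 4 lists. These 3 held the highest ranks of the members with LG268, and a limit to the 409 highest peaks of every list left them in the LG268 list and Angptl4 alone in the control and RA lists.

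Regions with the most similar rank percentiles over the 8 lists (mean absolute difference, absent counted as 0, repeats left out) were found for each gene's leading site. Closest to the Angptl4 site were regions of Chd3 (6.38 points), C030007H22Rik (7.15) and Mcl1 (8.14), and closest to the upstream Pdk4 site those of 8030442B05Rik (2.17), Arid3b (2.87) and AY512931 (3.62). For the Klf10 intron 1 site they were Nuak1 (2.29), Gadd45a (3.66) and Cdc42ep4 (4.02). For sites of a single list the nearest regions only share a rank in that list. They were Katnal2, Mpeg1 and Ubac1 for Plin2, Pcmtd1, Mrps9 and Cdk15 for Cat, and Cdc37l1, Tbc1d1 and Akap12 for Tsc22d1, with differences of at most 0.0399 points.

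The gene lists of the pathway are read against the share of all 14490 genes with an RXR peak, 6.89% in the control, 5.99% with GW3965, 12.4% with LG268, 11.9% with RA and 25.1% in any list. The 14490 are genes named in at least 1 list, so the named genes of each pathway list are the like base for these shares. Of 14 receptors and coregulators, 13 of them among the 14490, 3 had a peak in the control, 3 with GW3965, 4 with LG268 and 5 with RA, and 8 in at least 1 list, all above those shares. This list and the pathway lists below were chosen with earlier results of these data known. Their counts describe them and are no test. Ppard, the most widely expressed PPAR, had a peak about 6.5 kb upstream in the control (percentile 31.9), with LG268 (65.4) and with RA (62.6), and Pparg in day 8 replicate 2 alone. Ncoa3, a coactivator, had a site 38581 to 38643 bp downstream of its TSS in all 8 lists, at percentiles of 86.2 to 99.0 in the ES lists and 34.7 to 99.3 on the days. A second Ncoa3 peak near the TSS was at 48.8 with LG268 and 3.96 with RA.

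Among 21 paralogs of the 6 genes and related enzymes, 14 of them among the 14490, 7 had a peak in any list (25.1% of all genes), with 4 in the control, 3 with GW3965, 5 with LG268 and 4 with RA. Klf9 and Klf11, relatives of Klf10, were those found in 4 or more lists. The Klf9 site about 5.2 kb upstream was found in 7 lists, with percentiles of 81.8 in the control, 72.5 with GW3965, 94.2 with LG268 and 79.6 with RA. Klf11, likewise induced by transforming growth factor beta, had a promoter site at 65.4 in the control, 66.5 with GW3965, 93.7 with LG268, 92.0 with RA and 86.8 in day 8 replicate 2. Unlike Klf10, both had a control peak. No Pdk2, Pdk3, Plin1, Plin3, Plin4 or Plin5 peak was called in any RXR list.

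Of 33 further PPAR targets outside fatty acid oxidation, 18 of them among the 14490, 6 had an RXR peak in the control (6.89% of all genes), 3 with GW3965 (5.99%), 6 with LG268 (12.4%) and 4 with RA (11.9%), and 10 in any list (25.1%). Over all 33 the RA count is near the share of all genes. The genes outside the 14490 were named in no list, so they are not in the base of that share. Over the 18 that are, the 4 with RA lie above 11.9%. Lipe, which encodes hormone-sensitive lipase, was the one found in 4 or more lists (6 lists), at 2 places. Its site about 3.6 kb downstream of the TSS was at percentile 86.1 in the control, 46.7 with GW3965, 74.0 with LG268 and 45.8 with RA, and a peak near the TSS was at 42.15 in the control, 8.62 with LG268, 80.6 with RA and 73.9 and 77.0 on day 8. Of 18 oxidation genes, 15 of them among the 14490, 7, 4, 10 and 9 had a peak in these ES lists and 10 in any list, above the same shares of all genes. Cpt1a, which encodes the carnitine palmitoyltransferase of the outer mitochondrial membrane, was the oxidation gene in all 8 lists, at 96.1 or above in each ES list, where Angptl4 was at 21.5 with GW3965. Other oxidation genes in 4 or more lists included Acaa1a, Acaa2, Slc25a20 and Decr1.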

How the data were processed

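The 12 deposited files are peak lists, 1 per library. Tools listed in the submitters' processing notes, without roles, are MACS2 2.0.10, HOMER 4.2 and BWA 0.6.0, with the builds mm9 and mm10. Annotation used mm10, per the file headers. Each peak's score, distance to the TSS, nearest gene and location class are the authors' deposited values. What the score measures is not given in the sources used here.

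A member's peaks are those with its symbol as nearest gene, at any distance. Ranks were taken within each list, sites were merged at 1 bp, and backgrounds were counted over all 14490 named genes or all peaks. The genes, pathway lists and settings were chosen with earlier results of these data known. Named were the members, pathway genes in at least 4 RXR lists, others singled out in the text after their values were seen, and the 3 regions closest in rank to each leading site. A pathway gene that meets this rule is not reported here. Lists give no read totals, so precision cannot be stated. Promoter letters are from RefSeq (GRCm38.p6). No test was made. The counting and motif code was tested on simulated data. Python 3.11.15, numpy 2.4.6, pandas 2.3.3 and matplotlib 3.10.9 were used.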

Additional observations from a re-analysis of the deposited data

How the results depend on the processing

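Of 118 recomputed counts over 35 results, 82 stayed within 1.5 times the reported count and 36 moved. The farthest member RXR peak was at -20280 bp from its TSS, so limiting peaks to 100 kb could move none. Leaving out either replicate of a day could not lower a count for both replicates, and moved none. Matching centres within 200 bp moved none. No H3K27ac alternative moved by this rule, but some counts fell. With lists of 12472 peaks, RA sites in H3K27ac went from 3 to 2. Within 1 kb of the TSS, genes with an H3K27ac peak went from 6 to 5 in the control and with RA. With GW3965 they went from 5 to 4. Without the GW3965 list, an alternative added after seeing the data, 4 of 6 genes had an RXR peak in any list.

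With scores of at least 10, the genes and the sites with an RXR peak were 1 in the control, 0 with GW3965 and 2 with RA. They were 0 in day 8 replicate 1, in both day 8 replicates together and on day 16, and 3 genes were left in any list. Median scores of the RXR lists ran from 6.5 to 15.23, so a score of 10 does not mark the same rank in every list. With every list limited to its 409 highest peaks, genes and sites were 1 in the control, 1 with GW3965, 1 with RA and 0 on day 8. With ES lists of 940 peaks, sites without a control peak were 1 with LG268 and 1 with RA, and 1 control site was found with RA. With 50% reciprocal overlap, sites were 0 in day 8 replicate 1 and in both day 16 replicates, and 0 control sites were found with GW3965. The day 16 and day 8 replicate 1 peaks cover under 50% of their merged sites. No paired analysis was possible because no result comes from a test. Since the lists give no depth, a site without a peak may have been missed in a shallower library.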
